A study of Mus musculus with 24 samples.

Results

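Wnt ligands, their receptors and their secreted inhibitors were followed in the efferent nerve (EN) fibres of the ventral root and the afferent nerve (AN) fibres of the dorsal root of C57BL/6 mice on the day of birth (P0) and at ages of 1, 3 and 5 weeks (written 1 W, 3 W and 5 W). The genes were chosen by name among the gene probes of the array, as every gene called Wnt, Fzd, Sfrp or Dkk with a number, plus Lrp5, Lrp6, Ror1 and Ror2. This gave 41 genes on 57 of 56605 gene probes, and the probe with the highest mean over the 24 arrays stood for its gene. The 41 genes were 19 ligands, 14 receptors and 8 inhibitors. Each of the 8 groups (EN and AN at each of the 4 stages) had 3 arrays from 3 independent experiments, with roots of spinal segments L4 to L6 from 9 animals per stage collected by root after the arachnoid had been removed, and no treatment or mutation in any group. It is not stated how the 9 animals were divided among the 3 arrays, so p values measure the spread between these samples, which may be partly technical.

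Wnt proteins are secreted, lipid-modified signals that bind Frizzled receptors together with the coreceptors Lrp5 and Lrp6, which stabilises β-catenin, or with receptors such as Ror1 and Ror2, which act without β-catenin. The Sfrp proteins bind Wnt ligands outside the cell, whereas Dkk1, Dkk2 and Dkk4 bind the Lrp coreceptors. In peripheral nerve, Wnt signals are known to act on Schwann cells, which wrap axons in myelin, and on growing axons, and the dissected roots also hold fibroblasts, vessels and the membranes around the root.

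Values are the quantile-normalised log2 intensities deposited for each array, so a difference of 1 is a 2-fold change, and levels are compared between samples for 1 probe, never between probes. A probe was tested when it stood well above background, by the scanner software, on all 3 arrays of at least 1 group, which left 36409 probes and 34 of the 41 genes. A change was called at an adjusted p below 0.05 with a fold change above 2, in a limma fit over all tested probes. Of the 41 genes, 27 were well above background on all 24 arrays and 12 were not well above background on any of the 3 arrays of at least 1 group. In bulk tissue, fewer cells of a type and less RNA per cell cannot be told apart.

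On the arrays, 55.1 to 71.7% of gene spots were well above background and no gene spot was saturated. Markers of myelinating Schwann cells stood at a mean of 15.0 to 15.8 on the P0 arrays and 16.6 to 16.9 on the 3 W and 5 W arrays. Both roots carried these markers, so they do not check which root a sample came from. A list of 7 markers of sensory neurons, the cells whose bodies lie in the ganglion next to the dorsal root, varied between samples. At P0 its mean was 11.2 to 11.8 in EN and 11.1 to 12.8 in AN, and none of the 7 was called between the roots. The list therefore did not tell the roots apart at P0, the baseline of the changes below. AN replicate 3 at 3 W stood apart, with a mean of 13.8 over that list against 9.18 and 8.97 on the other arrays of its group, and it had the lowest array weight of the 24 (0.216). Results that change without it are given with and without it. Motor neuron markers averaged 4.9 to 7.0 on every array, with ranges that overlapped between the roots at each stage. The 3 W arrays and replicate 3 at 5 W shared a slide that held no P0 array, so a slide difference and a change between P0 and 3 W are separated only through the 5 W arrays.

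Against P0 of the same root, 17 of the 34 tested genes were called at 1 or more stages, 14 of them lower and 3 higher, and no gene was called in opposite directions. The 14 that fell were the ligands Wnt1, Wnt5b, Wnt6 and Wnt7a, the receptors Fzd2, Fzd6, Fzd7, Fzd9, Fzd10, Ror1 and Ror2, and the inhibitors Sfrp1, Sfrp2 and Dkk2. The 3 that rose, by the probe used for each gene, were the receptor Fzd3 and the inhibitors Sfrp5 and Dkk3. Probes of Wnt5a and Fzd8 that were not used were also called higher, as given below. At 1 W few genes had moved: in EN 1 was higher, where 6.25% of all tested probes were, and 3 were lower, where 5.67% were. In AN at 1 W none was higher, beside 4.96% of all tested probes, and 2 were lower, beside 3.62%.

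At 3 W, 10 of the 34 genes were lower in EN, or 29.4%, where 14.4% of all tested probes were lower, and 3 were higher, or 8.82%, where 16.1% were higher. In AN at 3 W, 12 were lower, or 35.3%, beside 12.8% of all tested probes, and 3 were higher, beside 15.0%. At 5 W, 8 genes were lower in EN, or 23.5%, beside 14.5% of all tested probes, and 3 were higher, beside 15.4%. In AN at 5 W, 11 were lower, or 32.4%, beside 12.7%, and 3 were higher, beside 15.2%. The median log2 change of the 34 genes was -0.51 in EN and -0.64 in AN at 3 W, where the medians of all tested probes were 0.044 and 0.015. At 5 W it was -0.32 in EN and -0.44 in AN, with medians of 0.044 and 0.026 over all tested probes. The comparisons of 1 root share its P0 arrays, so they are given side by side and their likeness is not a separate result.

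The lists of the 2 roots overlapped. At 3 W, 8 genes were lower in both roots, which is 80% of the EN list and 66.7% of the AN list, and at 5 W, 7 genes were, which is 87.5% and 63.6%. Over all tested probes, the probes lower in both roots were 67.3% of the EN list and 76% of the AN list at 3 W, and 69.6% and 79.5% at 5 W, so such shares are common on these arrays. At 3 W Wnt6 and Wnt7a were on the EN list alone and Fzd6, Fzd9, Ror1 and Wnt5b on the AN list alone. With the slide as a fixed term in the fit, Fzd9 (-1.49, adjusted p = 0.0019) and Ror1 (-1.16, adjusted p = 0.019) were also called lower in EN at 3 W. In that fit the 3 W calls of Wnt7a in EN and Fzd6 in AN were lost. The same 3 genes, Fzd3, Sfrp5 and Dkk3, were higher in both roots at 3 W and at 5 W, where 75.3 to 80.8% of all probes higher in 1 root were higher in the other. A gene on 1 list alone is not thereby shown to differ between the roots, and that difference was tested separately further on.

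**Figure D1:**
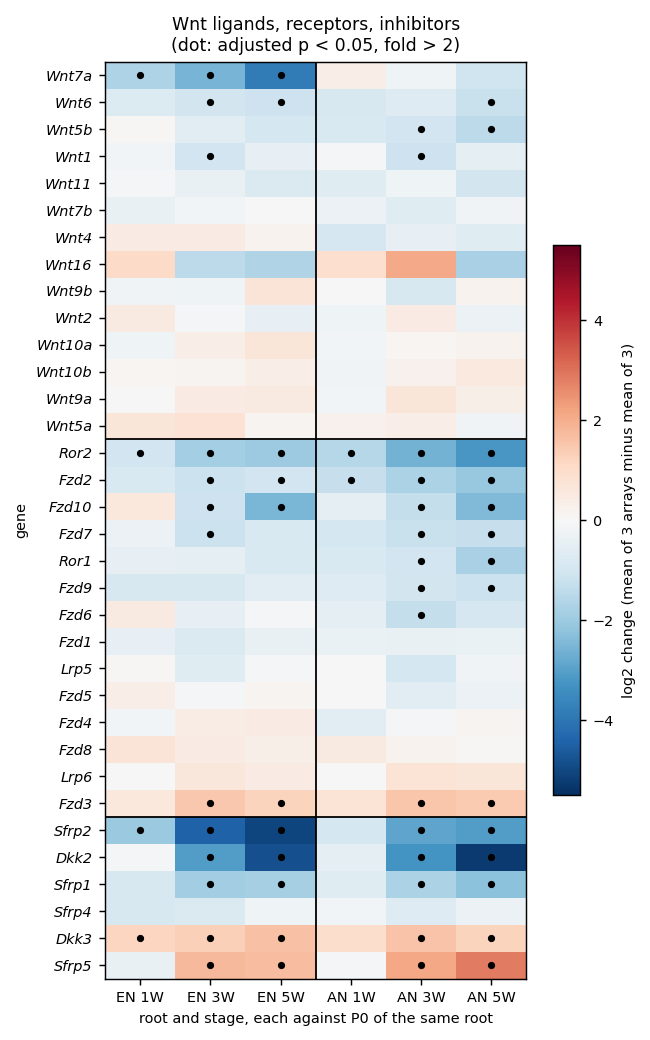
Log2 change of the 34 tested genes against P0 of the same root (rows: ligands, then receptors, then inhibitors, with black lines between them; columns: EN and AN at 1 W, 3 W and 5 W; colour: difference of the means of 3 arrays; dot: called). Most dots lie on blue cells, the fields of Sfrp2 and Dkk2 are the darkest blue, and red cells with dots are those of Fzd3, Dkk3 and Sfrp5. The red field of Wnt16 in AN at 3 W rests on a single spot that the scanner software had flagged.

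The sequences below are the 250 bases before the annotated start of 5 genes that carry the pattern: the receptors Ror2 and Ror1, the inhibitors Dkk2 and Sfrp2, which fell, and the inhibitor Sfrp5, which rose. They come from RefSeq on GRCm38.p6 and are written 5′ to 3′ on the strand of the gene, at chr13:53286125-53286374 (minus strand) for Ror2, chr4:100095541-100095790 (plus) for Ror1, chr3:132085042-132085291 (plus) for Dkk2, chr3:83766071-83766320 (plus) for Sfrp2 and chr19:42202253-42202502 (minus) for Sfrp5. Capitals mark matches, on either strand, to CTTTGA, the core of sites bound by Tcf and Lef factors, which act with β-catenin, or to TATAAA, the TATA box.
Ror2: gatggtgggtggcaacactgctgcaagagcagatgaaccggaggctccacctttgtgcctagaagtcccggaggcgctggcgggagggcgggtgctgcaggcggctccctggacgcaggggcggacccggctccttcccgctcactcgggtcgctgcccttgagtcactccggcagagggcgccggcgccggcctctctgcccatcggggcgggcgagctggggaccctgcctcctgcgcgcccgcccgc
Ror1: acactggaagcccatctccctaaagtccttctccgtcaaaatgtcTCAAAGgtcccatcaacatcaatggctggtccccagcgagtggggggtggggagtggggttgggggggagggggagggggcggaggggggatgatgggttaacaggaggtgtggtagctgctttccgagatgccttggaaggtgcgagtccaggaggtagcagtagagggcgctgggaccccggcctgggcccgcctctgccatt
Dkk2: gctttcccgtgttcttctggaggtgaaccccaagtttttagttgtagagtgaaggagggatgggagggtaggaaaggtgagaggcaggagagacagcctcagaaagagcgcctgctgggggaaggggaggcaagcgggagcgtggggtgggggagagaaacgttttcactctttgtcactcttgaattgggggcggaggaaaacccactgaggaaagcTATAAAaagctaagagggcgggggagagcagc
Sfrp2: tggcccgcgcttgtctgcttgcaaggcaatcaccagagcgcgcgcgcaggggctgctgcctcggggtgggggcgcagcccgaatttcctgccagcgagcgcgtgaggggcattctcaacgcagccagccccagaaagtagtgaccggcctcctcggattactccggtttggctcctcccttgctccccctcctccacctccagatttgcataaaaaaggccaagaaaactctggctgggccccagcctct
Sfrp5: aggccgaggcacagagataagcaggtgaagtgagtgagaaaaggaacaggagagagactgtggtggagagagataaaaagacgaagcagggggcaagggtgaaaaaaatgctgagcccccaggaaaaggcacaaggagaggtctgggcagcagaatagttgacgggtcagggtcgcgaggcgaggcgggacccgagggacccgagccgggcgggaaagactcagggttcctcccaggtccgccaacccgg

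In Ror1 the capitals are TCAAAG, which is CTTTGA on the other strand, 205 bases before the start, and in Dkk2 they are TATAAA, 32 bases before the start. The stretches of Ror2, Sfrp2 and Sfrp5 hold neither string. Their GC content was 73.2% for Ror2, 62.4% for Ror1, 55.6% for Dkk2, 63.6% for Sfrp2 and 59.6% for Sfrp5, where the median of 32536 distinct stretches of that length was 52.4%. CTTTGA was found in 13.9% of all stretches and in 5 of the 27 members with an entry (Dkk1, Fzd1, Ror1, Wnt11 and Wnt5b). TATAAA was found in 12.3% of all stretches and in 4 of the 27 (Dkk1, Dkk2, Fzd1 and Wnt11). A match of letters is a description of the sequence, not a site that was shown to be bound.

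Among the 14 tested ligands, by the probe used for each, none was called higher than P0 at any stage, and at most 3 were lower in 1 comparison. Another Wnt5a probe was called higher, as given below. Wnt7a, a ligand that acts on synapses and vessels in the nervous system, changed most, and it fell in EN. In EN it read 7.51, 7.88 and 7.26 at P0, 4.93, 6.38 and 6.26 at 1 W, 4.99, 5.01 and 4.96 at 3 W, and 4.25, 4.24 and 2.67 at 5 W. No EN array at a later stage reached the P0 range, and the probe was well above background on 2 of the 3 arrays at 1 W, 1 at 3 W and none at 5 W. The log2 change in EN was -1.69 ± 0.58 (SE, n = 3 per group, adjusted p = 0.037) at 1 W and -2.57 ± 0.58 (adjusted p = 0.0011) at 3 W. At 5 W it was at least 5.61-fold lower than at P0 (adjusted p = 2.0e-05), measured against the lowest signal well above background on the dim arrays, as for every bound given here. The 3 W call was lost when the slide was a fixed term in the fit (-1.05, adjusted p = 0.28).

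In AN, Wnt7a read 8.17, 8.09 and 7.50 at P0, 8.37, 8.12 and 8.31 at 1 W, 7.10, 6.73 and 9.27 at 3 W, and 7.39, 7.39 and 5.68 at 5 W. The AN groups overlapped with P0 at 1 W and 3 W, and the 5 W change of -1.10 ± 0.58 was not called (adjusted p = 0.12). A second Wnt7a probe moved the same way in EN, by -1.28, -1.40 and -3.28 at 1 W, 3 W and 5 W, and was called at 5 W alone.

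The other ligands that fell did so by less. Wnt5b, a ligand of the branch without β-catenin, read 10.73, 10.67 and 10.85 in AN at P0 and 9.45, 9.14 and 9.38 at 5 W, with no overlap. Its log2 change in AN was -1.06 ± 0.15 at 3 W (adjusted p = 9.0e-06) and -1.43 ± 0.15 at 5 W (adjusted p = 1.9e-07). In EN it read 10.61, 10.66 and 10.34 at P0 and 9.56, 9.51 and 9.63 at 5 W, a change of -0.97 ± 0.15 (adjusted p = 2.0e-05) that stayed within 2-fold. With the slide as a fixed term that change was -1.12 (adjusted p = 1.2e-05) and was called. A second Wnt5b probe gave -0.77 in AN at 3 W and -1.03 at 5 W.

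Wnt6, a ligand known from surface ectoderm and epithelia, lies next to Wnt10a on chromosome 1. It read 12.38, 12.94 and 12.61 in EN at P0, then 11.50, 11.66 and 11.70 at 3 W and 11.05, 11.99 and 11.52 at 5 W. In AN it read 12.59, 13.33 and 12.98 at P0, 12.30, 12.15 and 12.29 at 3 W and 11.49, 11.89 and 11.81 at 5 W. All later arrays listed here lay below the P0 range of their root, and the calls were EN at 3 W (-1.02 ± 0.25, adjusted p = 0.0022), EN at 5 W (-1.12, adjusted p = 0.00095) and AN at 5 W (-1.24, adjusted p = 0.00043). Its neighbour Wnt10a was called in no comparison.

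Wnt1, a ligand of the β-catenin branch that lies next to Wnt10b on chromosome 15, dipped at 3 W in both roots. It read 9.71, 9.51 and 9.37 in EN and 9.68, 9.11 and 9.25 in AN at P0. At 3 W it read 8.34, 8.54 and 8.50 in EN and 8.17, 8.42 and 8.04 in AN, and at 5 W it read 9.48, 9.29 and 8.52 in EN and 9.56, 8.87 and 8.07 in AN. Low values came from the arrays of 3 W and replicate 3 at 5 W, which are the arrays of 1 slide. The 3 W changes were -1.07 ± 0.29 in EN (adjusted p = 0.0049) and -1.13 ± 0.29 in AN (adjusted p = 0.0033), and with the slide as a fixed term they were -0.0015 (adjusted p = 0.997) and -0.068 (adjusted p = 0.83).

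The remaining tested ligands (Wnt2, Wnt4, Wnt5a, Wnt7b, Wnt9a, Wnt9b, Wnt10a, Wnt10b, Wnt11 and Wnt16) were not called against P0 in the main fit. Wnt11, a ligand of the planar polarity branch, came nearest, from 6.94, 7.03 and 7.01 in AN at P0 to 5.92, 5.93 and 6.15 at 5 W (-0.99, adjusted p = 8.0e-05). With the slide as a fixed term Wnt11 was called there (-1.11, adjusted p = 0.00019). In that fit Wnt4 was also called lower in AN at 1 W (-1.04, adjusted p = 0.0019). Wnt5a, the best known ligand of Ror2, read 10.22, 10.92 and 10.73 in EN at P0 and 11.47, 11.40 and 11.38 at 3 W, a change of 0.80 (adjusted p = 0.020) within 2-fold. With the slide as a fixed term that change was 0.16 (adjusted p = 0.65). The Wnt5a probes disagreed in size, since another one rose in EN by 1.84, 1.49 and 1.04 at 1 W, 3 W and 5 W and in AN by 1.47 at 1 W, each called.

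Of the 14 receptors, all of which were tested, Ror2 changed most. Ror2, a tyrosine kinase receptor for Wnt5a, fell at each later stage in both roots. In EN it read 11.14, 10.99 and 10.98 at P0, 9.85, 9.89 and 10.28 at 1 W, 9.12, 9.07 and 9.30 at 3 W, and 8.82, 8.98 and 9.27 at 5 W. In AN it read 11.25, 11.38 and 11.38 at P0, 9.53, 9.75 and 10.05 at 1 W, 8.48, 8.51 and 9.16 at 3 W, and 7.99, 7.78 and 8.59 at 5 W. No later array of either root overlapped with P0. The log2 change reached -2.01 ± 0.21 in EN (4.03-fold, adjusted p = 2.2e-07) and -3.22 ± 0.21 in AN (9.31-fold, adjusted p = 4.9e-10) at 5 W. Already at 1 W it was -1.03 ± 0.21 in EN (adjusted p = 0.0014) and -1.56 ± 0.21 in AN (adjusted p = 3.2e-05), the EN value lying so close to 2-fold that 6 of the alternatives lost the call.

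Ror1, the relative of Ror2, varied more among replicates. In AN it read 9.03, 9.99 and 10.22 at P0 and 7.57, 7.69 and 8.67 at 5 W, a change of -1.77 ± 0.44 (adjusted p = 0.0024) with no overlap. Its 3 W values in AN were 8.98, 8.82 and 8.24 (-1.07, adjusted p = 0.048), and without replicate 3 of that group the change was -0.85 (adjusted p = 0.15). In EN it read 9.35, 10.01 and 10.33 at P0 and 8.72, 9.19 and 9.24 at 5 W, a difference of -0.85 ± 0.44 that was not called (adjusted p = 0.11). With the slide as a fixed term that difference was -1.03 (adjusted p = 0.0052) and was called. Between the roots at 5 W, Ror1 was not called (-1.07, adjusted p = 0.16), and with replicates paired within a stage it was lower in AN (adjusted p = 0.0026).

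The 10 Frizzled receptors moved in both directions. In AN at 3 W, 5 of the 10 were lower (Fzd2, Fzd6, Fzd7, Fzd9 and Fzd10), beside 12.8% of all tested probes, and 1 was higher (Fzd3), beside 15.0%. In EN at 3 W, 3 were lower (Fzd2, Fzd7 and Fzd10), beside 14.4%, and 1 was higher (Fzd3), beside 16.1%. At 5 W, 4 of the 10 were lower in AN, beside 12.7%, and 2 in EN, beside 14.5%, so the EN count was near that share. Fzd3 was again higher in both, beside 15.2% in AN and 15.4% in EN.

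Fzd10, a receptor of the β-catenin branch, read 9.62, 9.63 and 9.34 in EN at P0, 9.91, 10.05 and 10.42 at 1 W, 8.48, 8.67 and 7.99 at 3 W, and 7.75, 6.47 and 6.76 at 5 W. In AN it read 9.68, 9.85 and 9.81 at P0, 9.25, 9.31 and 9.29 at 1 W, 8.56, 8.44 and 8.46 at 3 W, and 7.56, 7.07 and 7.36 at 5 W. The arrays of 3 W and 5 W lay below all P0 arrays in both roots, whereas at 1 W the EN arrays lay above P0 and the AN arrays below it. At 5 W the log2 change was -2.53 ± 0.24 in EN (adjusted p = 8.1e-08) and -2.45 ± 0.24 in AN (adjusted p = 1.3e-07). The 1 W changes of 0.60 in EN and -0.50 in AN were not called, and neither was their difference (-1.10 ± 0.34, adjusted p = 0.31).

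Fzd2, a receptor of the Wnt5a branch as well as the β-catenin branch, fell further in AN than in EN. In EN it read 12.23, 12.42 and 12.27 at P0, 11.27, 11.53 and 11.58 at 1 W, 11.03, 11.14 and 11.21 at 3 W, and 11.08, 11.48 and 11.22 at 5 W. In AN it read 12.20, 12.38 and 12.53 at P0, 10.92, 11.06 and 11.35 at 1 W, 10.62, 10.40 and 10.82 at 3 W, and 10.23, 10.24 and 10.45 at 5 W. The roots overlapped at P0 and were apart at 3 W and 5 W. The change at 5 W was -1.05 ± 0.14 in EN (adjusted p = 7.0e-06) and -2.06 ± 0.14 in AN (adjusted p = 1.3e-09), and the difference between these changes was -1.02 ± 0.20 (adjusted p = 0.019).

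Smaller falls were called for Fzd7 (-1.19 in EN and -1.22 in AN at 3 W, -1.28 in AN at 5 W), Fzd9 (-1.01 and -1.17 in AN at 3 W and 5 W) and Fzd6 (-1.32 in AN at 3 W, a call lost with the slide as a fixed term). Fzd3, a receptor needed for axon growth and guidance, went the other way. It read 9.90, 10.06 and 10.29 in EN at P0 and 11.62, 11.69 and 11.41 at 3 W, and in AN 9.66, 9.66 and 9.95 at P0 and 11.55, 11.42 and 10.92 at 3 W, with no overlap in either root. Its log2 change was 1.49 ± 0.22 in EN (adjusted p = 2.0e-05) and 1.54 ± 0.22 in AN (adjusted p = 1.5e-05) at 3 W, and 1.22 (adjusted p = 0.00014) and 1.46 (adjusted p = 2.4e-05) at 5 W. Fzd1, Fzd4, Fzd5 and Fzd8 and the coreceptors Lrp5 and Lrp6 were not called in the main fit. Of these, Lrp6 read 11.70, 11.65 and 11.71 in AN at P0 and 12.79, 12.42 and 12.17 at 3 W (0.77, adjusted p = 0.0033, within 2-fold). Lrp5 fell short of 2-fold in AN at 3 W (-0.97, adjusted p = 0.0015). With the slide as a fixed term these changes were 0.22 (adjusted p = 0.52) for Lrp6 and -0.40 (adjusted p = 0.075) for Lrp5. In that fit Fzd4 (-1.10, adjusted p = 0.00024) and Fzd5 (-1.04, adjusted p = 0.0069) were called lower in AN at 3 W. The probes of Fzd8 disagreed, since the second one rose by 1.62 to 2.21 in the 6 comparisons, each called, and the one used gave 0.071 to 0.71.

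Among changes between groups that each had an array well above background, the inhibitor Dkk2 changed most (-3.30 in AN at 3 W), followed by the receptor Ror2 and the inhibitor Sfrp2 (-3.09 in AN at 5 W). Sfrp2, which binds Wnt ligands, fell from 8.77, 7.82 and 7.64 in EN at P0 to 5.57, 6.27 and 6.28 at 1 W, 3.86, 3.35 and 3.66 at 3 W and 2.81, 2.51 and 3.73 at 5 W. In AN it fell from 8.00, 7.70 and 7.95 at P0 to 5.64, 5.09 and 4.19 at 3 W and 4.56, 5.99 and 3.82 at 5 W, after 7.02, 6.79 and 6.90 at 1 W. No EN array of 3 W or 5 W was well above background, and 2 of the 3 AN arrays were at each of these stages. In EN the change was -2.03 ± 0.46 at 1 W (adjusted p = 0.0029), at least 9.18-fold lower at 3 W (adjusted p = 2.5e-07) and at least 8.19-fold lower at 5 W (adjusted p = 3.6e-08). In AN it was -2.91 ± 0.46 at 3 W (adjusted p = 3.6e-05) and -3.09 ± 0.46 at 5 W (adjusted p = 1.6e-05).

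Dkk2, which binds Lrp coreceptors and can act for or against Wnt signals, was lower from 3 W. In EN it read 8.66, 8.75 and 8.88 at P0, 8.46, 8.45 and 9.06 at 1 W, 5.55, 5.86 and 5.64 at 3 W, and 3.24, 3.95 and 4.65 at 5 W. In AN it read 8.07, 8.01 and 8.35 at P0, 7.27, 7.52 and 8.00 at 1 W, 4.70, 5.20 and 4.63 at 3 W, and 2.98, 3.04 and 2.63 at 5 W. The 3 W and 5 W arrays lay far below P0 in both roots. In AN 1 of the 3 arrays at 3 W was well above background, so the change there is against a mostly dim group, and at 5 W none of the 6 arrays of both roots was. The 1 W changes of -0.10 in EN and -0.55 in AN were not called. The change at 3 W was -3.08 ± 0.28 in EN (8.44-fold, adjusted p = 4.7e-08) and -3.30 ± 0.28 in AN (adjusted p = 2.0e-08). At 5 W, Dkk2 was at least 13.2-fold lower in EN (adjusted p = 9.8e-11) and at least 12.6-fold lower in AN (adjusted p = 3.2e-11).

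Sfrp1, of the same family as Sfrp2, read 9.15, 8.95 and 9.06 in EN at P0 and 7.18, 6.85 and 7.42 at 3 W and 7.10, 7.22 and 7.42 at 5 W. In AN it read 9.68, 9.77 and 9.87 at P0 and 7.82, 7.72 and 8.50 at 3 W and 7.34, 7.36 and 7.84 at 5 W. No 3 W or 5 W array overlapped with P0. The change at 5 W was -1.81 ± 0.21 in EN (adjusted p = 9.5e-07) and -2.26 ± 0.21 in AN (adjusted p = 5.7e-08).

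Sfrp5, a further Wnt-binding member of that family, rose. In EN it read 13.98, 14.10 and 13.73 at P0, 13.62, 13.65 and 13.37 at 1 W, 15.63, 15.60 and 15.89 at 3 W, and 15.40, 15.54 and 15.99 at 5 W. In AN it read 13.88, 13.62 and 13.51 at P0, 13.71, 13.74 and 13.38 at 1 W, 15.97, 15.88 and 15.53 at 3 W, and 16.40, 16.37 and 16.85 at 5 W. The rise came between 1 W and 3 W in both roots, and AN went on to higher values at 5 W. The change at 3 W was 1.77 ± 0.18 in EN (adjusted p = 2.3e-07) and 2.12 ± 0.18 in AN (adjusted p = 2.6e-08), and at 5 W it was 1.71 ± 0.18 (adjusted p = 2.8e-07) and 2.87 ± 0.18 (7.32-fold, adjusted p = 3.1e-10).

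Dkk3, a relative of the Dkk inhibitors that does not bind the Lrp coreceptors as they do, rose earlier. It read 13.05, 12.93 and 12.82 in EN at P0 and 14.02, 14.16 and 14.14 at 1 W, and 12.76, 12.92 and 12.75 in AN at P0 and 13.70, 13.96 and 13.71 at 1 W. The log2 change in EN was 1.17 ± 0.14 at 1 W (adjusted p = 1.3e-05) and 1.62 at 5 W (adjusted p = 2.8e-08). In AN it was 0.98 at 1 W, just within 2-fold, and 1.56 at 3 W (adjusted p = 6.5e-08). The other Dkk3 probes moved less, by 0.76 and 0.29 in AN at 5 W where the one used gave 1.24. Sfrp4 was not called against P0 in the main fit. With the slide as a fixed term it was called lower in EN at 1 W (-1.01, adjusted p = 0.0016) and 3 W (-1.33, adjusted p = 0.0024). In that fit it was also called lower in AN at 3 W (-1.20, adjusted p = 0.0048).

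**Figure D2:**
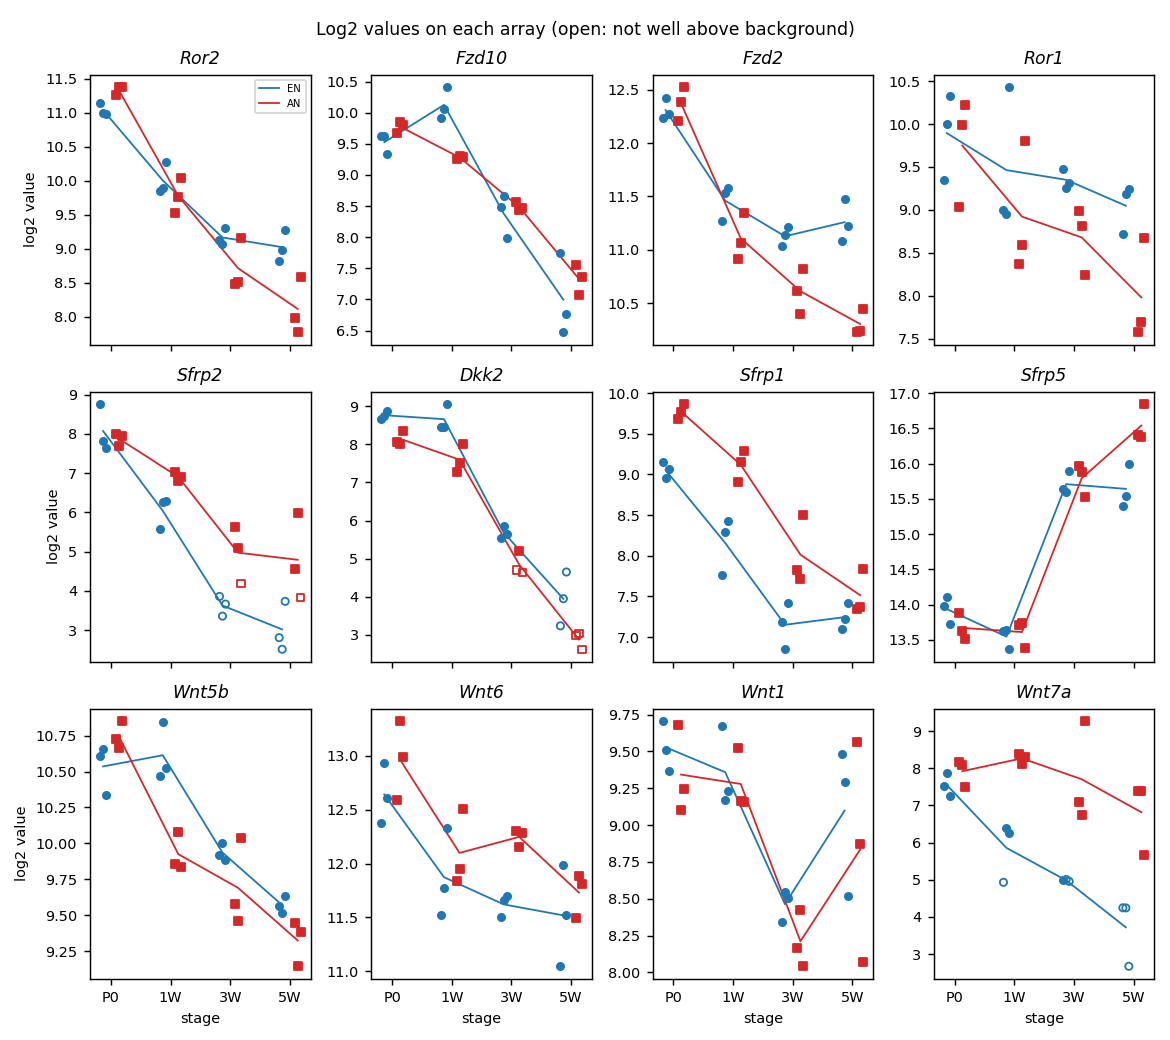
Log2 value on each array by stage for 12 members, EN as circles and AN as squares, with lines through the means of 3 arrays and open symbols for probes not well above background. Ror2, Sfrp1 and Dkk2 fall in both roots, Sfrp5 rises between 1 W and 3 W, and the Wnt7a lines of EN and AN part from 1 W.

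Marker lists of cell types moved over the same stages. The 6 proliferation markers averaged 12.2 to 13.1 on the P0 arrays and 8.9 to 9.4 on the 5 W arrays, and 6 of 6 were lower in AN and 5 of 6 in EN at 5 W. The 7 tested markers of the meninges averaged 11.9 to 12.6 at P0 and 10.4 to 11.3 at 5 W, with 6 lower in AN and 5 in EN. The fibroblast list averaged 14.7 to 15.0 at P0 and 14.8 to 15.5 at 5 W, with 3 of 8 higher and 2 lower in EN and 2 higher and 2 lower in AN. Immature Schwann cell markers were lower for 5 of 7 in EN and 2 of 7 in AN at 3 W, and for 4 and 3 at 5 W. In each root 1 of the 7 was higher at 3 W and 1 at 5 W. Sensory neuron markers were lower in EN for 7 of 7 at 1 W and 6 of 7 at 3 W and 5 W, and in AN for 4 of 7 at 5 W alone. Macrophage markers were higher for 6 of 6 in EN and 3 of 6 in AN at 5 W, and myelinating Schwann cell markers for 2 of 10 in EN and 7 of 10 in AN. The part of these cell types in the changes of the Wnt members was not tested. On the slide that held arrays of P0 and 5 W, all 14 members called in AN at 5 W and all 11 called in EN moved the same way, past 2-fold in 14 and 9 of them. These arrays were among those that gave the calls, so the shared direction was largely set in advance and is no separate check. On that slide the 5 W array differed from the mean of the 2 P0 arrays by -3.60 in AN and -2.0 in EN for Ror2 and by 2.81 and 1.62 for Sfrp5. P0 and 3 W shared no slide, and with the slide as a fixed term the 3 W changes were -2.42 in EN and -3.17 in AN for Ror2, -3.34 and -3.56 for Dkk2, and 1.28 and 1.63 for Sfrp5.

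Between the roots at the same stage, few members differed. At P0 none of the 34 was called, where 0.0714% of all tested probes were higher and 0.255% lower in AN, and 1 passed at an unadjusted p below 0.05 (Wnt2). At 1 W, 2 were higher in AN (Wnt7a and Sfrp4), beside 2.41% of all tested probes, and 3 were lower (Wnt2, Wnt4 and Dkk2), beside 0.371%. At 3 W, 1 was higher (Wnt7a), beside 2.23%, and none was lower, beside 0.882%. At 5 W, 2 were higher (Wnt7a and Sfrp2), beside 2.49%, and 1 was lower (Dkk2), beside 0.821%. For each of these genes no EN array at 5 W was well above background, and for Dkk2 no AN array was either. These counts come from the main fit, which did not pair replicates. With replicates paired within a stage, Ror1 was called lower at 5 W as well.

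Wnt7a, with the array values given above, was higher in AN from 1 W. The log2 difference was 0.37 at P0 (adjusted p = 1.00), 2.41 ± 0.58 at 1 W (adjusted p = 0.022) and 2.72 ± 0.58 at 3 W (adjusted p = 0.0093). At 5 W the level in AN was at least 3.37-fold above EN (adjusted p = 0.0028). Every AN array lay above every EN array at each of these later stages. With only the compared groups in the fit, the calls at 3 W (adjusted p = 0.079) and 5 W (adjusted p = 0.14) were lost. The growth of the difference since P0 was 2.73 ± 0.82 at 5 W and was not called (adjusted p = 0.14). With replicates paired within a stage it was called (adjusted p = 0.031), and without AN replicate 3 of 3 W in the fit it was called as well (adjusted p = 0.042). A second Wnt7a probe differed by 1.91, 1.57 and 2.71 at 1 W, 3 W and 5 W, called at 5 W.

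The sensory neuron list was read beside Wnt7a. Its mean was 11.2 to 11.8 in EN and 11.1 to 12.8 in AN at P0, and at 1 W it was 6.9 to 8.5 in EN and 12.2 to 12.6 in AN, where 7 of 7 markers were higher in AN. At 3 W it was 7.08 to 7.87 in EN and 8.97 to 13.8 in AN, and 2 of 7 markers were higher in AN. At 5 W the roots overlapped, at 7.33 to 7.98 in EN and 7.17 to 10.6 in AN, and 1 of 7 markers was higher in AN. Within AN at 3 W, replicates 1 to 3 read 9.18, 8.97 and 13.8 for the list and 7.10, 6.73 and 9.27 for Wnt7a, and at 5 W they read 10.6, 9.51 and 7.17 for the list and 7.39, 7.39 and 5.68 for Wnt7a. In these 2 groups the array farthest from the others in the list was also the farthest in Wnt7a, in the same direction. At 1 W the list read 12.2, 12.6 and 12.4 and Wnt7a 8.37, 8.12 and 8.31, so the array with the highest list mean had the lowest Wnt7a, and at P0 the array with the highest list mean (replicate 2, 12.8) did not have the highest Wnt7a. The part of sensory neuron RNA in the Wnt7a difference was not tested. Without AN replicate 3 of 3 W, the 3 W difference was 1.93 (adjusted p = 0.049). The markers of immature Schwann cells also stood higher in AN, for 1 of 7 at 1 W, 4 at 3 W and 5 at 5 W. Of 6 astrocyte markers, 3 were higher in AN at 1 W and 3 at 5 W, and of 6 oligodendrocyte markers, 2 and 3 were. At 3 W none of these astrocyte and oligodendrocyte markers was called between the roots. The part of these 3 cell types in the Wnt7a difference was not tested either.

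Wnt2 and Wnt4 were lower in AN. Wnt2, a ligand of the β-catenin branch, read 8.43, 8.46 and 8.17 in EN and 6.39, 6.62 and 6.36 in AN at 1 W, a difference of -1.90 ± 0.34 (3.73-fold, adjusted p = 0.0047). It was apart already at P0, at 7.86, 7.98 and 7.68 in EN and 6.57, 6.70 and 6.80 in AN, where the difference of -1.15 was not called (adjusted p = 0.17) and became called without AN replicate 3 of 3 W in the fit (adjusted p = 0.026). At 3 W the roots overlapped, at 7.65, 8.00 and 7.67 in EN and 8.28, 7.03 and 6.09 in AN. At 5 W the EN arrays read 7.66, 7.30 and 7.20 and the AN arrays 6.78, 6.11 and 6.27, a difference of -0.999 that was not called (adjusted p = 0.087).

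Wnt4, a ligand with roles in kidney and neuromuscular junctions, read 11.22, 11.60 and 11.24 in EN and 10.20, 10.32 and 9.99 in AN at 1 W, a difference of -1.18 ± 0.22 (adjusted p = 0.0053). At P0 the roots overlapped, at 11.06, 11.15 and 10.49 in EN and 11.02, 11.19 and 11.08 in AN. Its later differences of -0.73 at 3 W and -0.64 at 5 W were not called. The calls of Wnt2 and Wnt4 at 1 W held under every alternative run, and the other 7 calls between the roots were each lost under at least 1.

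The inhibitors split in direction. Sfrp4, of the same family as Sfrp2, read 7.27, 7.85 and 7.75 in EN and 8.30, 9.10 and 9.07 in AN at 1 W, a difference of 1.20 ± 0.24 (adjusted p = 0.0083). At P0 it read 8.51, 8.55 and 8.46 in EN and 8.98, 9.22 and 8.73 in AN, which was not called. Sfrp2 differed at 5 W, where no EN array and 2 AN arrays were well above background (adjusted p = 0.023), so no fold is given. For Dkk2 at 1 W the difference was -1.06 ± 0.28 (adjusted p = 0.034), at 7.27, 7.52 and 8.00 against 8.46, 8.45 and 9.06 in EN. Its call at 5 W (adjusted p = 0.024) lies where both groups are below background and carries no fold.

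**Figure D3:**
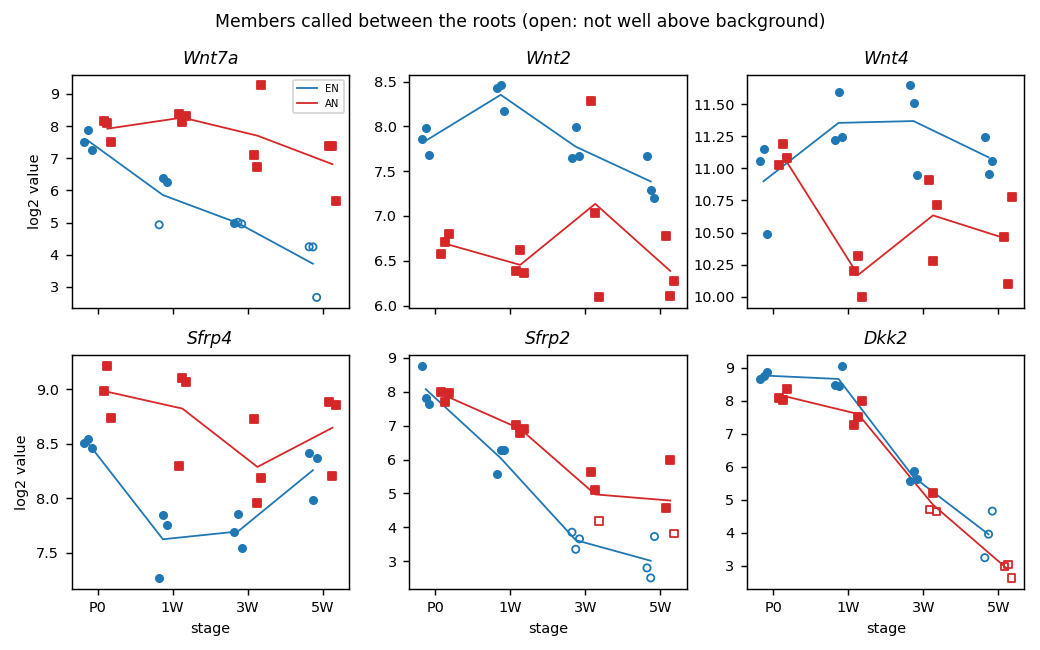
Log2 value on each array by stage for the 6 members called between the roots, EN as circles and AN as squares, lines through the means, open symbols not well above background. At 1 W the AN squares lie above the EN circles for Wnt7a, Sfrp4 and Sfrp2, and below them for Wnt2, Wnt4 and Dkk2.

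Whether the roots developed differently was tested as the AN minus EN difference at a stage against that at P0. None of the 34 members was called at 1 W, beside 0.0632% of all tested probes, with 3 at an unadjusted p below 0.05, and none at 3 W, beside 0.525%, with 2 at an unadjusted p. At 5 W, 2 were called, beside 0.931%. These were Sfrp5, which rose by 1.17 ± 0.26 more in AN than in EN (adjusted p = 0.031), and Fzd2, described above. Ror2 had the largest such value among the receptors, at -1.21 ± 0.30 (adjusted p = 0.055), and it was called with replicates paired within a stage (adjusted p = 0.0059) and without AN replicate 3 of 3 W (adjusted p = 0.024). The Sfrp5 call was lost with scaling to the 75th percentile (adjusted p = 0.19), and with the groups compared alone in the fit both calls were lost (adjusted p = 0.18 for Sfrp5 and 0.12 for Fzd2).

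Wnt16, a ligand known from bone and skin, was singled out after its values were seen. It read 5.86, 6.01 and 6.23 in EN and 5.44, 6.13 and 5.97 in AN at P0, and 6.85, 7.25 and 7.10 in EN and 6.55, 6.95 and 6.86 in AN at 1 W. At 3 W it read 4.45, 4.37 and 4.94 in EN, none well above background, and 4.80, 4.54 and 14.5 in AN. At 5 W it read 4.62, 4.99 and 3.48 in EN and 3.09, 4.98 and 4.17 in AN. Apart from 1 array, then, both roots were highest at 1 W and low from 3 W. The value of 14.5, on AN replicate 3, came from a spot that the scanner software marked as non-uniform, the single such mark among 984 array values of member probes. Its pixels had an SD of 60.3% of their mean, where the median over 2697 unmarked spots of similar brightness on that array was 8.8%.

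With all 24 arrays the standard error of a Wnt16 change was 1.57 and nothing was called. With the scanner signals and the marked spot left out it was 0.39, and Wnt16 was called lower than P0 at 3 W and 5 W in both roots. No array of either root was then well above background at 3 W, so these groups give no exact fold (EN at least 2.23-fold lower, adjusted p = 0.0043, and AN, with 2 arrays, adjusted p = 0.029). At 5 W, where 1 of 3 arrays of each root was above background, the fitted changes were -1.67 in EN (adjusted p = 0.0014) and -1.77 in AN (adjusted p = 0.00093). The rises at 1 W, of 1.04 in EN (adjusted p = 0.054) and 0.94 in AN (adjusted p = 0.092), were not called. The probe of Wnt16 lies at chr6:22241089-22241148 of mm9, the build of the probe coordinates in the files.

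**Figure D4:**
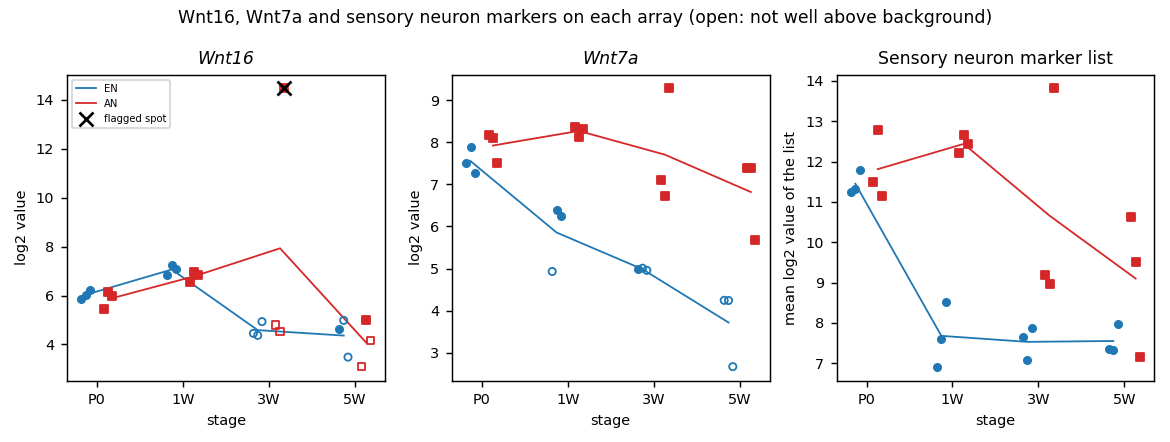
Log2 value of Wnt16 and Wnt7a and mean log2 value of the 7 sensory neuron markers on each array by stage, EN as circles and AN as squares, lines through the means, open symbols not well above background, and a cross on the marked spot. The marked Wnt16 spot lies at 14.5 where the other 2 arrays of that group are below 5, and the same array has the highest sensory neuron mean of AN at 3 W, at 13.8.

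The 7 members that were not tested were Wnt2b, Wnt3, Wnt3a, Wnt8a, Wnt8b, Dkk1 and Dkk4. On none of the 24 arrays were Wnt2b and Wnt3a well above background, and Wnt3 was above it on 1 EN array (5.19, at P0) and on 7 AN arrays. Dkk1, the best known Lrp-binding inhibitor, was above background on a single array (AN replicate 2 at P0, 5.38). At 5 W Wnt3 read 4.84, 6.10 and 4.82 in AN, 2 of them above background, and 2.91, 2.67 and 2.67 in EN, none above it. Dkk4 was above background on 1 of 3 arrays in EN and in AN at 1 W and 5 W and on none at P0 or 3 W. No test is given for these genes.

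The rest of the pathway was read from a list of 63 further genes, 59 of them tested. In EN, 2 were higher and 5 lower at 1 W, 3 and 19 at 3 W, and 3 and 17 at 5 W. In AN, 2 were higher and 4 lower at 1 W, 5 and 21 at 3 W, and 3 and 21 at 5 W. The background percentages are those given above for each comparison. At 5 W, where 14.5% of all tested probes were lower in EN and 12.7% in AN, the falls were uneven over the classes. Of 8 other inhibitors and modulators, not all of them secreted inhibitors, 5 were lower in each root. Of the 8 tested R-spondins and Lgr, Rnf43 and Znrf3 proteins that they bind, 4 were lower in EN and 3 in AN. Of the 7 target genes, 3 were lower in EN and 6 in AN, and of the 19 intracellular transducers, 1 and 3. None of the other receptors (Ryk, Ptk7, Musk, Gpc3 and Gpc4) was lower in either root. The planar polarity genes Vangl2, Celsr1 and Celsr3 and the secretion gene Wls were lower in both roots.

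Of the target genes, Sp5 and Axin2 are given here with Lef1, which was counted as a transducer. Sp5, a transcription factor and direct target of β-catenin signals, read 9.00, 9.03 and 9.83 in AN at P0 and 5.64, 5.33 and 5.48 at 5 W (-3.80 ± 0.25, adjusted p = 5.6e-10), and 8.61, 8.34 and 9.00 in EN at P0 and 5.80, 5.53 and 5.45 at 5 W (-3.06, adjusted p = 9.9e-09). Axin2, a target that acts as feedback inhibitor, read 8.79, 8.76 and 9.58 in AN at P0 and 7.0, 7.39 and 7.15 at 3 W (-1.87 ± 0.38, adjusted p = 0.00049), and 8.52, 8.30 and 8.89 in EN at P0 and 7.67, 7.36 and 7.66 at 3 W (-1.01, adjusted p = 0.032), a stage that shares no slide with P0. At 5 W it read 8.07, 8.76 and 7.13 in AN (-1.06, adjusted p = 0.026) and 8.31, 9.06 and 7.42 in EN (-0.31, adjusted p = 0.52), and at 1 W it was called in neither root. Lef1, a DNA-binding partner of β-catenin, was called in AN at 3 W alone (-1.02, adjusted p = 0.00010).

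Some of the other secreted modulators changed by over 3 on the log2 scale. Frzb, a relative of the Sfrp proteins, read 8.99, 8.87 and 8.98 in EN at P0, 11.12, 11.18 and 10.62 at 1 W and 13.01, 13.20 and 13.03 at 5 W (4.13 ± 0.17, adjusted p = 2.1e-12). In AN it read 9.43, 9.51 and 9.04 at P0, 9.90, 10.10 and 9.83 at 1 W and 12.40, 12.56 and 12.40 at 5 W (3.13, adjusted p = 5.1e-11). At 1 W it had risen in EN and was within 2-fold of P0 in AN, and the AN minus EN difference at 1 W against P0 was -1.41 ± 0.24 (adjusted p = 0.041). Rspo1, which strengthens Wnt signals at the receptor, rose from 9.17, 8.27 and 8.20 in EN at P0 to 13.51, 13.69 and 13.25 at 5 W (4.94 ± 0.22, adjusted p = 5.6e-12) and from 8.67, 8.48 and 7.98 in AN to 12.23, 12.32 and 12.36 (3.92, adjusted p = 8.3e-11), with an AN minus EN difference of -1.18 at 5 W (adjusted p = 0.0028).

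Wif1, a Wnt-binding inhibitor, changed by -3.0 ± 0.34 in AN (adjusted p = 8.6e-07) and -2.22 in EN (adjusted p = 2.4e-05) at 3 W. Cthrc1, a secreted protein that links Wnt to Frizzled and Ror2, changed by -4.33 ± 0.17 in AN (adjusted p = 1.8e-12) and -3.67 in EN (adjusted p = 9.0e-12) at 5 W. Dkkl1, a relative of the Dkk inhibitors, changed by -2.59 in AN at 5 W (adjusted p = 0.00043). Rspo2 and Lgr6 were at least 6.70-fold and 6.53-fold lower in EN at 5 W, where no array was well above background.

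Lgr5, a receptor for R-spondins, did not overlap between the roots at P0 and was further apart at 5 W. It read 10.56, 10.26 and 9.95 in EN and 11.32, 11.17 and 10.90 in AN at P0, and 7.30, 6.99 and 7.45 in EN and 9.61, 8.89 and 9.77 in AN at 5 W. It fell in both (-3.01 ± 0.21 in EN, adjusted p = 1.6e-09, and -1.70 in AN, adjusted p = 2.4e-06), and the difference between the falls was 1.31 ± 0.30 (adjusted p = 0.041). Prickle2, of the planar polarity branch, rose in both roots, by 2.49 ± 0.19 in EN (adjusted p = 5.4e-09) and 2.13 in AN (adjusted p = 4.1e-08) at 5 W.

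**Figure D5:**
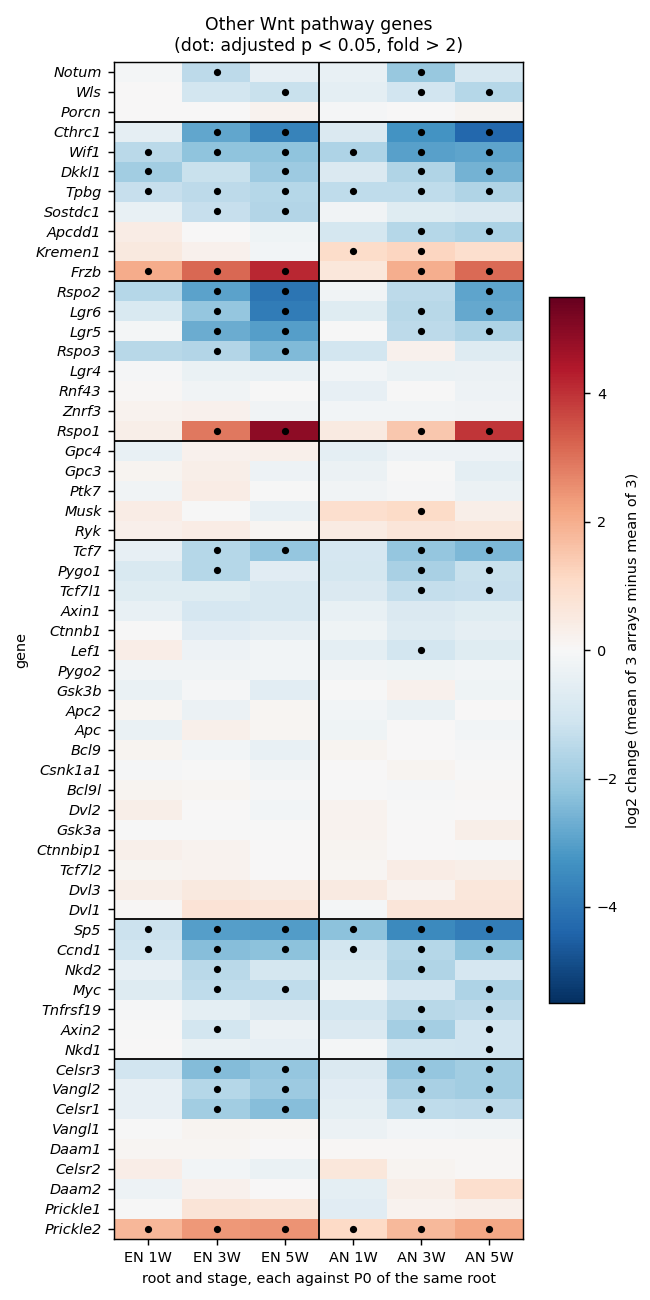
Log2 change of the 59 other tested pathway genes against P0 of the same root (rows in blocks: secretion, other inhibitors, R-spondins and their receptors, other receptors, transducers, targets, planar polarity; columns: EN and AN at 1 W, 3 W and 5 W; dot: called). Frzb, Rspo1 and Prickle2 are the darkest red rows, Cthrc1, Rspo2, Lgr6 and Sp5 the darkest blue, and the block of transducers is pale.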

How the data were processed

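Gene expression was measured on 24 single-colour Agilent arrays, 3 for each of 8 groups of efferent or afferent nerve fibres. Per the file headers and the labels, each scanner file holds the fluorescence intensity of every spot, extracted with Agilent Feature Extraction 10.7.1.1, with its background and its marks for spots above background and for outliers. The authors also deposited a table of log2 values, which their methods describe as quantile normalised in GeneSpring, and this table was used for all values unless stated. Its columns correlated with the scanner signal of their own array at 0.9955 to 0.9999.

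Members were found by gene name, with 1 probe per gene. The members and all gene lists were chosen with earlier results of these data known. Array values are given for the 4 members of each role class with the largest called change and for every member called between the roots without overlap, and other genes named with values were chosen by size or after their values were seen. Of 56605 gene probes, 36409 entered a single limma fit (version 3.58.1, R 4.3.3) of the 8 group means (16 residual degrees of freedom), with Benjamini-Hochberg adjustment over all probes tested. The procedure was tested on simulated data with independent noise on each array. These held no slide or pair effect, so they cannot show how such effects bear on the calls. Summaries and figures were made with Python 3.11.15, pandas 2.3.3, numpy 2.4.6 and matplotlib 3.10.9. Where no array of a group was well above background, a lower bound of the fold was computed from the limit of each array. Median spot signals ranged from 45.4 to 191 between arrays and median backgrounds from 23 to 46, and the number of arrays limits the precision.

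Same-numbered AN and EN arrays of a stage share a slide and deviated together (correlations of 0.11 to 0.65 over 12 pairs, against -0.47 to 0.12 over 24 pairs with different numbers). The main fit, and the calls between the roots from it, left this pairing out, and an alternative fit took the numbers as pairs within a stage. Across stages the numbers did not pair (-0.25 to 0.38 over 18 pairs). Alternatives were the scanner signal under quantile (spots marked as outliers left out), 75th percentile or normexp (offset 50) processing, other filters, replicate and slide blocks, array weights, the mean of a gene's probes, the compared groups alone, other thresholds and each array left out. A fit without AN replicate 3 of 3 W throughout was added after seeing the data. Promoters and gene names came from RefSeq tables of GRCm38.p6, in which 40 of 41 members matched by probe accession and 41 by symbol.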

Additional observations from a re-analysis of the deposited data

Results flagged for a closer look

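For 2 members the change from P0 to 5 W differed between the roots by the test of that difference. Fzd2 fell further in AN (AN minus EN difference at 5 W against P0 -1.02, adjusted p = 0.019 in the limma fit) and Sfrp5 rose further in AN (1.17, adjusted p = 0.031). Leaving out 1 array of the groups compared moved the values between -1.10 and -0.91 for Fzd2 and between 1.01 and 1.34 for Sfrp5. The Fzd2 call was lost without AN P0 replicate 3, EN P0 replicate 1 or 3, AN 5 W replicate 1 or 2, or EN 5 W replicate 2. The Sfrp5 call was lost without AN P0 replicate 2 or 3, EN P0 replicate 1 or 2, or EN 5 W replicate 1 or 2.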

How the results depend on the processing

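Of 70 calls of members, 44 held under every alternative run, 26 were lost under at least 1 and none reversed. Of the 59 calls against P0, 42 held, and of the 9 between the roots, 2 did (Wnt2 and Wnt4 at 1 W). The counts below are of called members, and the cause of each shift was not tested.

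With no minimum fold change the counts against P0 were 11, 21 and 17 in EN at 1 W, 3 W and 5 W (4, 13 and 11 with it) and 11 and 24 in AN at 1 W and 3 W (2 and 15), and between the roots they were 8, 5 and 8 at 1 W, 3 W and 5 W (5, 1 and 3). At an unadjusted p they were 1 at P0 and 3 at 3 W between the roots, and 3, 2 and 5 for the difference against P0 at 1 W, 3 W and 5 W (0, 0 and 2 adjusted). Normexp gave 3 and 0 between the roots at 1 W and 5 W and 2 in EN at 1 W. Probes above background on all 24 arrays gave 3, 0 and 0 between the roots and 2 in EN at 1 W, since dim members were then not tested. The compared groups alone gave 3, 0 and 0 between the roots, and 2 and 0 for the difference at 1 W and 5 W. Array weights gave 2 between the roots at 3 W, 5 in AN at 1 W, and 2 and 1 for the difference at 1 W and 3 W. Scaling to the 75th percentile gave 1 for the difference at 5 W. The slide gave 4 there as a fixed or a random block, and 1 at 1 W as a random block.

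With the replicate block within a stage, which pairs AN and EN, 4 members were called for the difference at 5 W (adding Wnt7a and Ror2) and 4 between the roots at 5 W (adding Ror1, -1.07, adjusted p = 0.0026). The block over all stages added Ror2 for the difference at 5 W and changed no other call of a member against P0.

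Leaving out 1 array at a time gave 0 to 1, 2 to 5, 1 to 2 and 1 to 5 between the roots, from P0 to 5 W in order of age. It gave 2 to 5, 12 to 14 and 9 to 12 in EN and 2 to 5, 13 to 16 and 14 to 16 in AN at 1 W, 3 W and 5 W. For the difference it gave 0 to 1 at 1 W, 0 at 3 W and 0 to 5 at 5 W. The call of Wnt7a between the roots at 1 W was lost without AN 1 W replicate 1, 2 or 3 or EN 1 W replicate 1.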
